A study of Mus musculus with 24 samples.

Results

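The genes described here are 8 genes of the smooth muscle contractile apparatus, Acta2, Myl9, Tagln, Cnn1, Myh11, Smtn, Lmod1 and Mylk, taken by name. They were chosen with earlier results of these data known. Every probe of the array that is annotated to them was read, which gave 21 of the 45281 probes. Of these, 15 probes of 7 genes were detected on at least 3 of the 24 arrays and could be tested, within 12011 tested genes in all. The only Cnn1 probe was detected on 1 array and was not tested.

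RNA of whole hearts from female FVB/N mice was hybridised to Illumina MouseWG-6 BeadChips, 1 array per mouse. MHC-CELFΔ mice carry a dominant negative CELF protein, an inhibitor of splicing regulation by the CELF family, under a heavy chain myosin promoter that is active in heart muscle cells. The study describes the mild line (MHC-CELFΔ-574) as having less of this protein than the severe line (MHC-CELFΔ-10). The groups were wild type (n = 4), mild line (n = 3) and severe line (n = 3) at 3 weeks of age, and wild type (n = 4), mild line (n = 5) and severe line (n = 5) at 24 weeks. Each wild type group joined 2 mice of each line's own breeding, and both lines were compared with the same wild type arrays.

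Smooth muscle cells of the vessel wall contract when calcium and calmodulin activate myosin light chain kinase, which phosphorylates the regulatory light chain of smooth muscle myosin so that it can pull on actin filaments. Many genes of this apparatus are switched on by serum response factor (SRF) and its partner myocardin, through a short DNA element called the CArG box. Some of them, Acta2 and Tagln above all, are not limited to smooth muscle, since activated fibroblasts and immature or stressed heart muscle can also express them. An array of whole heart RNA reads all of these cells together, so fewer cells of a type and less RNA per cell cannot be told apart.

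In the RefSeq annotation of GRCm38.p6 the genes lie apart. Acta2 is at chr19:34240336-34255585, Myl9 at chr2:156775408-156781657, Tagln at chr9:45929628-45936058, and Cnn1 at chr9:22099221-22109221. Myh11 is at chr16:14194527-14292188, Mylk on the same chromosome at chr16:34745199-35002436, Smtn at chr11:3517522-3539292, and Lmod1 at chr1:135324813-135368065. Where in the transcripts the probes lie was not determined.

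RefSeq promoters, from 250 bases before to 50 bases after the annotated start, were at hand for 6 of the 8 genes (Tagln and Myh11 were not among them). They were searched for the CArG box, which reads the same way on both strands. An exact box was found in 1 of the 6, that of Myl9, and in 1.63% of all 32851 promoters. With 1 base of the 10 allowed to differ, 3 of the 6 held a box (Acta2, Myl9 and Lmod1), against 21.1% of all promoters. The boxes of Acta2 and Myl9 are shown because these are the genes with the highest differences below. Each line gives 30 bases on the strand of the gene, with the box in capitals.
Acta2, chr19:34255438-34255467, minus strand: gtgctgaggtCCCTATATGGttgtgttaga
Acta2, chr19:34255388-34255417, minus strand: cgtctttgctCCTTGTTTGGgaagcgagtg
Myl9, exact, chr2:156775293-156775322, plus strand: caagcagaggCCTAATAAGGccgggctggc
Myl9, 1 base off, chr2:156775355-156775384, plus strand: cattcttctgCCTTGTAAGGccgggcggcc
The Lmod1 promoter held 2 boxes with 1 base off, and Lmod1 is among the genes that did not pass any test below. A match of letters is a description of the sequence and not evidence of binding.

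The deposited probe IDs encode the 50 bases of each probe. They were decoded to see which probes read the same stretch, since such probes are not separate evidence for a gene. Among the smooth muscle probes 2 pairs overlapped. The first pair reads Acta2 and is shifted by 1 base, so that 49 bases are shared. In the first 30 bases of each, capitals mark the shared part.
Acta2 probe ILMN_2710353: tGGGGGATGAAGCCCAGAGCAAGAGAGGGA
Acta2 probe ILMN_2710354: GGGGGATGAAGCCCAGAGCAAGAGAGGGAT
The second pair reads Smtn and shares 20 bases, in capitals at the end of the first probe and at the start of the second.
Smtn probe ILMN_2695181, bases 21 to 50: ccacctgcggCGCCATGAGCTGCGTTTGCG
Smtn probe ILMN_2955973, bases 1 to 30: CGCCATGAGCTGCGTTTGCGcggcaagaat
The pair of Tagln probes did not overlap, and only the first was ever detected. Their first 30 bases are given so that each can be told from the other.
Tagln probe ILMN_1243652: agcatgttgggctcacacgttcctggccga
Tagln probe ILMN_1215145: tggcctgtggactattttgacaacccctgg

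Between 31.99% and 44.39% of all probes were detected on an array, at a detection p under 0.05. Celf4, from which the transgene was built, was between 6.33 and 6.49 on the log2 scale on all 8 wild type arrays and between 11.16 and 12.72 on the 16 transgenic arrays, so every array went with its label as wild type or transgenic. The lines overlapped in Celf4, so that it does not check the line, nor the age. Heart muscle markers averaged between 13.12 and 13.89 on every array. In a list of fat, airway and thymus markers, the lung surfactant genes Sftpc, Sftpa1 and Sftpb were not detected on any array. Others were, such as Adipoq on 23 arrays and Cidea and Cd8b1 on 24. The mean of the 8 tested genes of this list reached 8.82 in the mild line at 24 weeks (median 7.31) and 8.64 in the severe line (median 7.56). Whether neighbouring tissue was carried over was not tested. The dimmest raw value of an array was between 54.2 and 62.8 on 12 arrays and between 38.9 and 47.2 on the other 12, which gave a higher and a lower background set. In limma 0 genes passed an adjusted p under 0.05 between these sets, and 524 an unadjusted p under 0.05. Across the 4 runs of 6 successive sample numbers 1662 genes differed, Acta2 and Smtn among them, and no source used here says what such a run stands for. Values within each background set are therefore given beside the main results. The sets also divide the wild type mice by line. At 24 weeks those bred with the mild line were in the higher set and those bred with the severe line in the lower. At 3 weeks it was the reverse. Differences between the sets thus cannot be told apart from the line of the wild type mice. Of the transgenic mice of 3 weeks, only replicate 3 of each line was in the lower set.

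The first comparison asked which smooth muscle genes differed between severe line and wild type hearts at 24 weeks. Acta2, the actin of vascular smooth muscle, Myl9, the regulatory light chain of smooth muscle myosin, and Tagln, an actin-binding protein also called SM22α, rose. Myosin heavy chain, its kinase, smoothelin and leiomodin did not pass the test. Of the 7 genes tested 3 were called at an adjusted p under 0.05 in limma, all 3 higher, while 15.6% of the 12011 genes were called in either direction 8.26% being higher and 7.32% lower. The median difference of the 7 was 0.07 on the log2 scale, against 0.00 over all genes.

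Acta2 read 12.39, 12.60, 13.06 and 12.92 on the wild type arrays of 24 weeks and 14.40, 14.35, 14.75, 14.17 and 13.49 on those of the severe line, as quantile-normalized log2 intensity. The groups did not overlap, although severe line replicate 5 lay nearer to wild type than the others did. The difference was 1.49 ± 0.21 (SE), a fold change of 2.81 (95% CI 2.09 to 3.79, adjusted p = 1.85e-05). It was 1.88 within the 12 arrays of higher background and 1.15 within those of lower background, where it no longer passed (adjusted p = 0.0794). With the runs of 6 as a block the difference was 1.52 (adjusted p = 7.41e-07).

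Myl9 read 9.24, 9.21, 9.77 and 9.06 in wild type hearts and 10.24, 11.25, 11.10, 10.52 and 10.55 in the severe line, and all 5 severe line arrays lay above every wild type array. The fold change was 2.66 (95% CI 2.00 to 3.55), from a log2 difference of 1.41 ± 0.20 (adjusted p = 2.31e-05). The difference was 1.52 in the higher and 1.31 in the lower background set, past the threshold in both. It was 1.46 with the runs of 6 as a block (adjusted p = 2.54e-06).

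Tagln was dim. It read 6.51, 6.68, 6.49 and 6.57 in wild type hearts, where 1 of 4 arrays detected it, and 7.19, 7.82, 7.79, 7.46 and 7.21 in the severe line, where all 5 did. The groups did not overlap. The log2 difference was 0.93 ± 0.17, with a 95% CI from 0.59 to 1.27 (adjusted p = 3e-04), a fold change of 1.91, and 0.91 and 0.96 within the background sets. With so many wild type values near the background of the array, which was not subtracted, this fold is a low estimate. With a normexp background correction the difference was 1.02. With the runs of 6 as a block it was 0.94 (adjusted p = 0.000483).

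**Figure D1:**
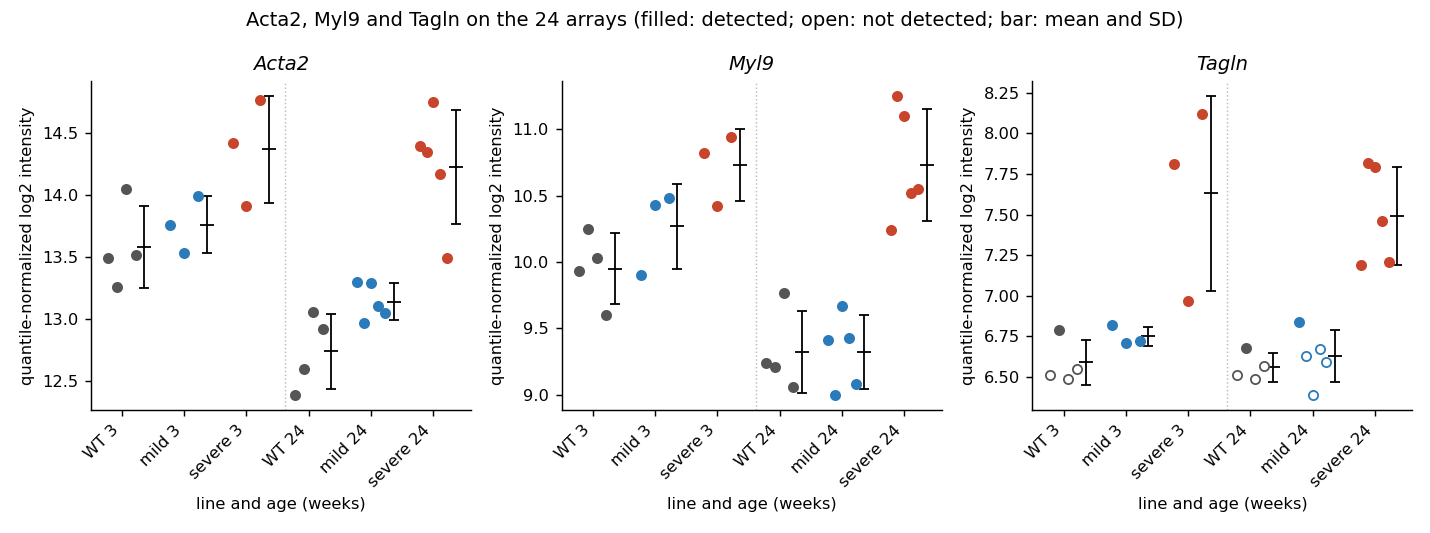
Quantile-normalized log2 intensity of Acta2, Myl9 and Tagln on each of the 24 arrays, by line and age in weeks (WT, wild type). Points are arrays, filled where the probe was detected (detection p under 0.05) and open where not, and bars give the mean and SD of the group. At 24 weeks every severe line array lies above every wild type and mild line array in all 3 panels.

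At 3 weeks the same question was asked in juvenile hearts, with 3 severe line arrays. Tagln rose, and Acta2 and Myl9 lay just beyond the threshold. Of the 7 genes 1 was called, beside 4.62% of all genes in either direction and 2.66% higher. The median of the 7 was 0.00, as over all genes.

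Tagln read 6.51, 6.79, 6.49 and 6.55 in wild type hearts of 3 weeks, detected on 1 of 4 arrays, and 7.81, 6.97 and 8.12 in the severe line, detected on all 3. Replicate 2 of the severe line was close to the highest wild type array, yet the groups did not overlap. The log2 difference was 1.05 ± 0.19, a fold change of 2.07 (95% CI 1.58 to 2.71, adjusted p = 0.00148). The difference fell to 0.74 within the arrays of higher background (adjusted p = 0.219). It was 1.60 within those of lower background, where replicate 3, the highest, was the only severe line array. The difference was 0.98 (adjusted p = 0.054) when only the 2 wild type mice bred with that line were used.

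Acta2 read 13.49, 13.26, 14.05 and 13.52 in wild type and 14.42, 13.91 and 14.77 in severe line hearts, and the groups overlapped. The difference was 0.79 ± 0.24 (adjusted p = 0.0567). Within the background sets it was 0.79 and 0.98, the second with severe line replicate 3 alone. It passed with the background set as a block (0.83, adjusted p = 0.0377) and with the runs of 6 as a block (0.74, adjusted p = 0.0148).

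Myl9 read 9.93, 10.25, 10.03 and 9.60 in wild type and 10.82, 10.42 and 10.94 in severe line hearts, with no overlap. The difference was 0.78 ± 0.23 (adjusted p = 0.052), and 0.53 and 1.13 within the background sets, the last with severe line replicate 3 alone. It passed with the runs of 6 as a block (0.70, adjusted p = 0.0257) but not with the background set as a block (0.79, adjusted p = 0.0542). Both genes lay so near the threshold that several settings moved them across it with every mouse kept: the adjusted p was 0.0488 for Acta2 and 0.045 for Myl9 with probes detected at a p under 0.01, 0.0109 and 0.0492 with the mean of a gene's probes, and 0.000853 and 0.0306 with array weights. Single mice moved them both ways. Without severe line replicate 2 the adjusted p was 0.0143 for Acta2 and 0.0269 for Myl9, and without severe line replicate 3 it was 0.348 and 0.266. It was 0.0316 for Acta2 without wild type replicate 3 and 0.0455 for Myl9 without wild type replicate 2.

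In the mild line none of the 7 genes was called at either age in limma. At 3 weeks 2.33% of all genes were called and at 24 weeks 0.966%. At an unadjusted p under 0.05, where 11.2% and 7.85% of all genes passed, none of the 7 did either. The median of the 7 was 0.16 at 3 weeks and 0.09 at 24 weeks, against 0.01 over all genes at both ages.

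Acta2 in the mild line read 13.76, 13.53 and 13.99 at 3 weeks and 13.30, 12.97, 13.29, 13.11 and 13.05 at 24 weeks. At 24 weeks 3 of these 5 arrays lay above all wild type arrays, and the difference was 0.40 ± 0.21, with a 95% CI from -0.03 to 0.83 (adjusted p = 0.707). Myl9 read 9.90, 10.43 and 10.48 at 3 weeks, and its difference of 0.32 ± 0.23 had an interval from -0.15 to 0.79. At 24 weeks it read 9.41, 9.00, 9.67, 9.43 and 9.08, within the wild type range but for the lowest array, with a difference of 0.00 ± 0.20 and an interval from -0.41 to 0.42. Tagln was detected on all 3 arrays of the mild line at 3 weeks, at 6.82, 6.71 and 6.72, and on 1 of 5 at 24 weeks, at 6.84, 6.63, 6.39, 6.67 and 6.59. Its differences were 0.16 ± 0.19 and 0.06 ± 0.17. None of these intervals reached a fold change of 2.

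**Figure D2:**
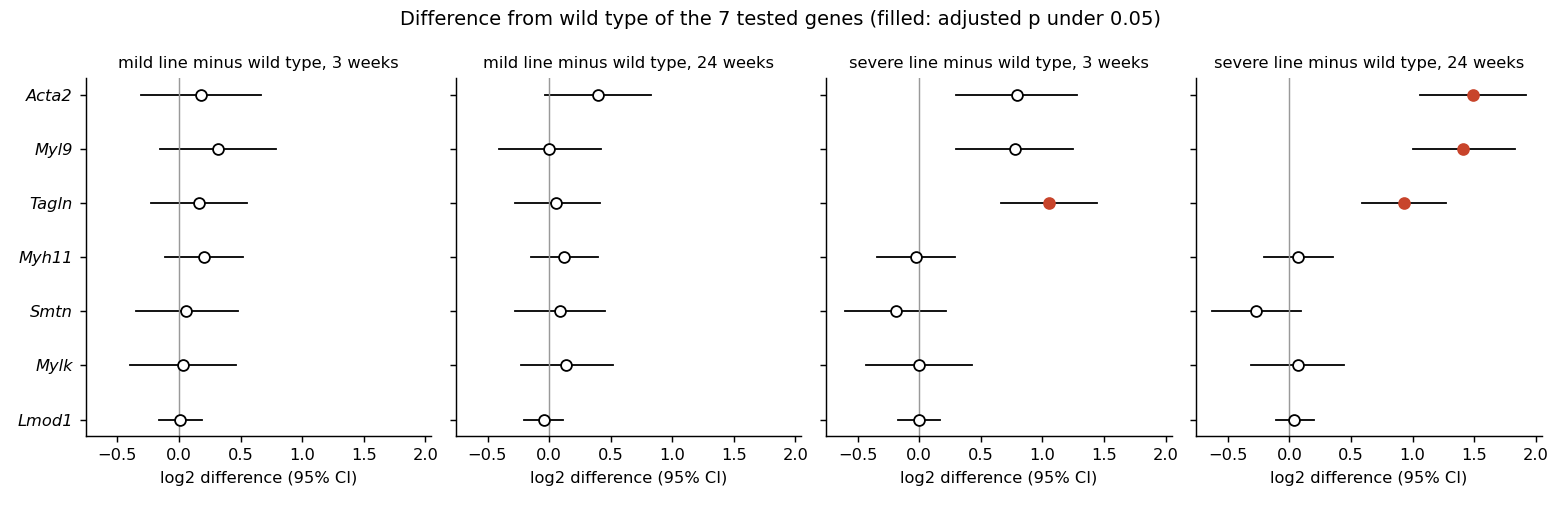
Log2 difference from wild type with its 95% confidence interval (horizontal axis) for the 7 tested genes (vertical axis), by line and age. Filled points passed an adjusted p of 0.05: none in the mild line, Tagln in the severe line at 3 weeks, and Acta2, Myl9 and Tagln at 24 weeks, where they are 1.49, 1.41 and 0.93.

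The lines were then set against each other, which leaves the wild type arrays out of the difference. At 24 weeks Acta2 was 2.13-fold (95% CI 1.61 to 2.82, adjusted p = 0.000623), Myl9 2.66-fold (2.03 to 3.49, 2.63e-05) and Tagln 1.82-fold (1.46 to 2.28, 0.000648) higher in the severe than in the mild line. In each of the 3 genes all 5 severe line arrays lay above all 5 mild line arrays. How many of all genes separate in this way, here or against wild type, was not determined. The 3 genes called of 7 stand beside 11.3% of all genes called, 5.94% being higher. Within the background sets Acta2 differed by 1.24 and 0.99 on the log2 scale (adjusted p = 0.118 in the lower set), Myl9 by 1.54 and 1.33, and Tagln by 0.76 (adjusted p = 0.166) and 0.94. Celf4 RNA was lower in the severe than in the mild line at this age, by a log2 difference of -0.64 (adjusted p = 0.0183). This is opposite to the order of the lines that the study gives for the protein, which the arrays do not read.

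At 3 weeks only Tagln separated the lines among the 7, with a difference of 0.88 ± 0.20 (adjusted p = 0.0418), beside 0.574% of all genes called. This call was fragile. With every mouse kept it was lost with the background set as a block (0.88, adjusted p = 0.053) and with the runs of 6 as a block (0.88, adjusted p = 0.0527). It was lost within the higher background set too (adjusted p = 0.633). The lower set held a single array of each line, which differed by 1.40. The call was also lost without any 1 of severe line replicates 1 and 3 or mild line replicates 1, 2 and 3, with adjusted p up to 0.353. Without each mouse in turn the difference ran from 0.64 to 1.22, always higher in the severe line. Acta2 differed by 0.61 ± 0.25 (adjusted p = 0.599) and Myl9 by 0.46 ± 0.24 (adjusted p = 0.836).

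Between wild type hearts of 3 and 24 weeks Acta2 was lower in the older mice. The difference was -0.84 ± 0.22 (adjusted p = 0.0377), a fold of 0.559 (95% CI 0.409 to 0.765), and the 4 older arrays lay below the 4 younger ones. It was the 1 gene of 7 called, beside 2.57% of all genes. The difference was -0.88 within the higher and -0.79 within the lower background set (adjusted p = 1 in the lower), and was no longer called without wild type replicates 1, 3 or 4 of 3 weeks or replicates 1 or 2 of 24 weeks (adjusted p up to 0.174). Within each background set the older and the younger wild type mice came from different lines. Over all wild type arrays Myl9 differed by -0.63 ± 0.21 (adjusted p = 0.137, and 0.0381 with the runs of 6 as a block), and Tagln by -0.02 ± 0.17.

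Ordered by mean, Acta2 ran from the severe line at 3 weeks (14.37 ± 0.43 SD) and at 24 weeks (14.23 ± 0.46) through the mild line (13.76 ± 0.23) and wild type (13.58 ± 0.33) at 3 weeks to the mild line (13.14 ± 0.15) and wild type (12.74 ± 0.30) at 24 weeks. Neighbours in this order overlapped throughout. Myl9 had the severe line at 24 (10.73 ± 0.42) and at 3 weeks (10.73 ± 0.27) at the top, and wild type (9.32 ± 0.31) and the mild line (9.32 ± 0.28) of 24 weeks at the bottom, again with every neighbour overlapping. Tagln fell into an upper and a lower part: both severe line groups (7.63 ± 0.60 at 3 weeks and 7.49 ± 0.30 at 24 weeks) lay apart from the other 4, whose means ran from 6.56 to 6.75.

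Whether the difference of the severe line from wild type changed with age was tested as an interaction. No gene of the 7 passed, beside 0.683% of all genes. The estimate was 0.70 ± 0.31 for Acta2 (adjusted p = 0.515, unadjusted p = 0.0347) and 0.64 ± 0.30 for Myl9 (adjusted p = 0.577, unadjusted p = 0.0463). At an unadjusted p under 0.05 these were 2 of the 7, beside 8.34% of all genes. For Tagln it was -0.12 ± 0.25. In the mild line no interaction of the 7 passed either, beside 0.0666% of all genes, and none had an unadjusted p under 0.05, which 4.25% of all genes had.

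Of the remaining 5 genes 4 were tested, and none of these passed in any comparison. Myh11, the heavy chain of smooth muscle myosin and a marker of mature smooth muscle, read 7.91, 7.62, 7.76 and 7.39 in wild type hearts of 24 weeks and 7.54, 7.90, 8.19, 7.49 and 7.59 in the severe line. These ranges overlapped, and the difference was 0.07 ± 0.13 with a 95% CI from -0.21 to 0.35. The interval leaves out the fold of Acta2. Myh11 was much dimmer than Acta2, though detected on all 24 arrays. Background was not subtracted, so a change of Myh11 could read low. In the mild line at 3 weeks the 3 Myh11 arrays, at 7.94, 7.91 and 7.85, lay above all 4 wild type arrays, by 0.20 ± 0.15 (adjusted p = 0.74).

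Smtn, smoothelin, an actin-binding protein of contractile smooth muscle, read 11.44, 10.74, 11.60 and 11.25 in wild type and 11.29, 11.12, 11.40, 10.74 and 10.38 in severe line hearts of 24 weeks, on its brightest probe. The groups overlapped, with a difference of -0.27 ± 0.17 (95% CI from -0.63 to 0.09). Mylk, the myosin light chain kinase, read 9.31, 8.70, 9.32 and 8.87 in wild type and 8.94, 9.50, 9.58, 9.26 and 8.31 in the severe line, with a difference of 0.07 ± 0.18 (95% CI from -0.31 to 0.44). Replicate 5 of the severe line had the lowest value of all 24 arrays for both genes.

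Lmod1, leiomodin 1, which helps to build actin filaments in smooth muscle, was detected on 8 of 24 arrays and stayed between 6.54 and 6.89. At 24 weeks its difference in the severe line was 0.04 ± 0.07. Cnn1, calponin 1, an actin-binding protein that restrains smooth muscle myosin, read between 6.37 and 6.72, and the detected array was mild line replicate 2 of 3 weeks. At these levels a change of either gene was not detectable, which does not show that there was none.

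**Figure D3:**
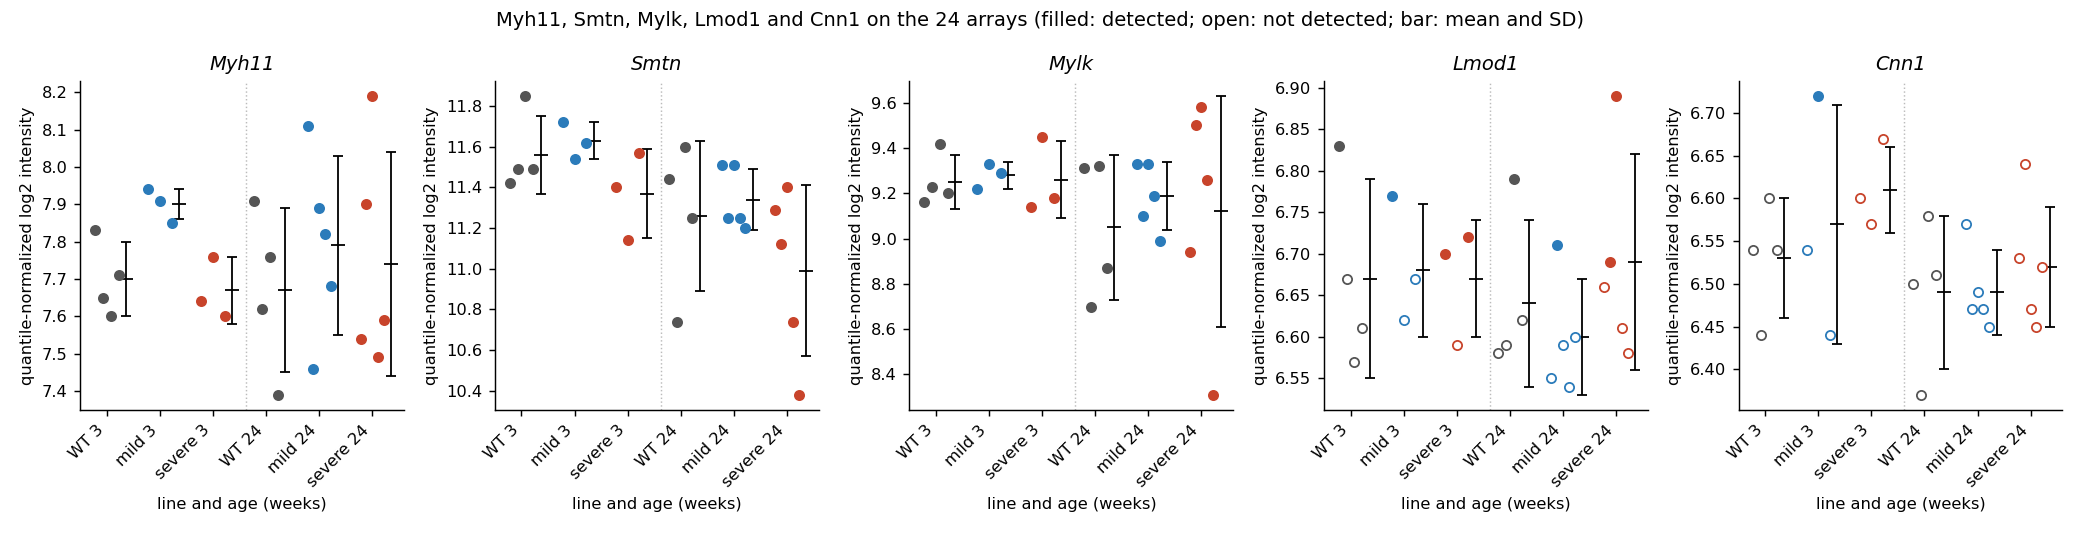
Quantile-normalized log2 intensity of Myh11, Smtn, Mylk, Lmod1 and Cnn1 on each of the 24 arrays, by line and age in weeks (WT, wild type). Points are arrays, filled where detected and open where not, and bars give the mean and SD. At 24 weeks the groups overlap in each panel, as for Myh11, with wild type arrays from 7.39 to 7.91 and severe line arrays from 7.49 to 8.19.

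Genes with several probes were then read probe by probe, over 18907 kept probes. The Acta2 probes ILMN_1237242 and ILMN_1236619 were not detected on any array. Of the 4 kept Acta2 probes 2 share 49 bases and are not separate evidence. In the severe line at 24 weeks the 4 kept probes all rose, by 1.46 to 1.73 on the log2 scale, beside 12.4% of all kept probes called in either direction. At 3 weeks they were 0.68 to 1.17 higher, and 1 of them was called (ILMN_2923445, 1.17 ± 0.28, adjusted p = 0.0203), beside 3.49% of all kept probes. The fall of Acta2 with age in wild type hearts passed on 1 of the 4 (-0.84), while the other 3 gave -0.31 to -0.86, beside 1.93% of all kept probes.

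The probes did not rank the mice alike. Severe line replicate 5 of 24 weeks was the lowest of its group on the brightest Acta2 probe (13.49) and on ILMN_2923445 (11.23), but the highest on ILMN_2710353 (10.17) and next to the highest on ILMN_2710354 (10.55). Wild type replicate 2 of 24 weeks was the highest of its group on both overlapping probes (9.02 and 9.44) and the lowest on ILMN_2923445 (10.22). Mylk showed the same for severe line replicate 5, which was lowest on ILMN_1219471 (8.31) and next to the highest on ILMN_1218347 (9.52). What sets these arrays apart was not tested. Without severe line replicate 5 or any other mouse, the Acta2 difference stayed between 1.36 and 1.68.

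For Smtn the second probe of the overlapping pair was lower in the severe than in the mild line at 24 weeks, by -0.49 ± 0.11 (adjusted p = 0.00764), beside 8.48% of all kept probes. Its values there were 10.64, 10.43, 10.42, 10.43 and 9.96 in the severe line and 10.85, 10.77, 10.85, 10.91 and 10.94 in the mild line, with no overlap. The first probe of the pair gave -0.35 ± 0.16 (adjusted p = 0.218), and the 2 dimmer Smtn probes -0.06 and -0.09. Against wild type the second probe gave -0.32 ± 0.12 (adjusted p = 0.0915). With the mean of its kept probes Smtn passed between the lines, at -0.25 (adjusted p = 0.0324).

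**Figure D4:**
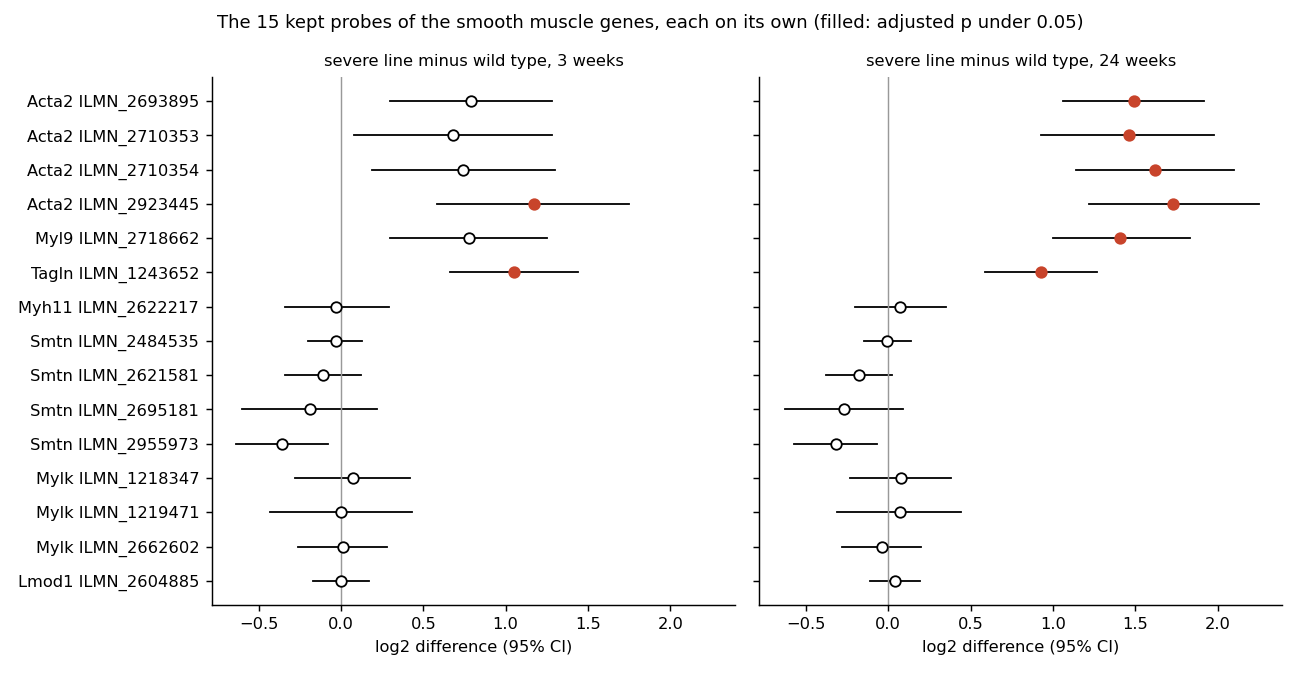
Log2 difference between severe line and wild type with its 95% confidence interval (horizontal axis) for each of the 15 kept probes of the smooth muscle genes (vertical axis), at 3 and 24 weeks. Filled points passed an adjusted p of 0.05 over all kept probes. The 4 Acta2 probes lie between 1.46 and 1.73 at 24 weeks, and those of Smtn, Myh11, Mylk and Lmod1 near 0 or below.

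Within groups the 7 tested genes varied together to differing degrees. Over the 24 arrays, as deviations from the group means, the 21 pairs had Pearson correlations between 0.19 and 0.77. Acta2 with Smtn was highest (r = 0.77, rho = 0.76), followed by Smtn with Mylk (r = 0.70, rho = 0.50). All values of an array share its RNA and its hybridisation, so these are descriptions. The deviations also keep differences between the runs of 6, and Acta2 and Smtn were the members that differed between runs. Among the other genes, the 5 whose deviations followed the mean deviation of the 7 most closely were Zfp282 (r = 0.92), Gars (0.90), Lrpap1 (0.88), Plekha4 (0.88) and Eipr1 (0.87). Of these Plekha4 rose in the severe line at 24 weeks (0.90, adjusted p = 9.96e-05), and the other 4 differed by 0.02 to 0.27 with no call.

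Other genes of the same apparatus were read from lists chosen by role, with earlier results of these data known. Their counts beside the share of all genes are therefore descriptions. Of 22 tested genes of actin filaments and their anchoring, 9 rose and 0 fell in the severe line at 24 weeks, with a median of 0.38 against 0.00 over all genes, of which 8.26% rose and 7.32% fell. Actn1, an actinin of focal adhesions, rose by 1.07, Tpm1, a tropomyosin that lies along actin filaments of heart and smooth muscle, by 1.02, and the intermediate filament genes Synm and Des by 0.92 and 0.88. At 3 weeks 5 of the 22 rose and 0 fell, beside 4.62% of all genes called in either direction and 2.66% higher. In the mild line none of the 22 was called at either age. Tpm1 and Des are also abundant in heart muscle.

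Of 14 genes that set myosin light chain phosphorylation or encode non-muscle myosin, 3 rose and 0 fell in the severe line at 24 weeks, beside 8.26% and 7.32% of all genes, with a median of 0.25. They were Myl6, the alkali light chain (0.78), Prkg1, the cGMP-dependent kinase that relaxes smooth muscle (0.75), and Myh10, a non-muscle myosin heavy chain (0.51). At 3 weeks Prkg1 rose in both lines, by 0.74 in the severe and 0.70 in the mild line, and so did Myl12a, a regulatory light chain of non-muscle myosin, by 0.51 and 0.75. These 2 of 14 in each line stand beside 4.62% of all genes called in the severe and 2.33% in the mild line.

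Regulators of the apparatus went both ways. Of 11 tested in the severe line at 24 weeks, 1 rose and 4 fell, beside 8.26% and 7.32% of all genes. Myocd, which encodes myocardin, was lower by -0.54 ± 0.16 (adjusted p = 0.0204), as were Hopx (-1.84) and Fhl2 (-1.47), proteins that can hold back SRF. Fhl1, of the same LIM domain family as Fhl2, rose by 1.34. In the mild line Hopx and Fhl2 were lower at 3 weeks (-2.63 and -1.86) and at 24 weeks (-2.12 and -1.36). In the severe line at 3 weeks 1 of the 11 rose and 0 fell, beside 4.62% of all genes called in either direction and 2.66% higher. Whether these regulators bear on the contractile genes was not tested. Of 11 receptors, channels and cyclase subunits of smooth muscle, 2 rose (Gucy1a3 by 0.76 and Ednrb by 0.51) and 1 fell (Agtr1a, the angiotensin II receptor, -0.89) in the severe line at 24 weeks. With 15.6% of all genes called there, 3 of 11 is no result about these genes as a group. Agtr1a was lower in the other 3 comparisons with wild type too, by -0.62 to -0.65.

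The other muscle actins were read beside Acta2, chosen after their values were seen. Acta1, the skeletal muscle actin that the stressed heart re-expresses, rose in both lines, by 1.12 and 1.66 in the mild line and by 1.04 and 1.70 in the severe line at 3 and 24 weeks. It did not separate the lines (0.04 ± 0.15 at 24 weeks), whereas Acta2 did (1.09 ± 0.20). Actc1, the cardiac actin, differed by at most 0.16 from wild type with no call, and Actb, a cytoplasmic actin, rose by 0.71 in the severe line at 24 weeks (adjusted p = 0.00441). Whether the Acta2 probes also take up RNA of these near-identical genes was not tested.

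Markers of cells that can carry the 3 risen genes moved with them in the severe line at 24 weeks. These lists, too, were chosen with earlier results of these data known, so their counts are descriptions. Of 13 tested fibroblast markers 8 rose and 0 fell, with a median of 0.45, where 8.26% of all genes rose. Their mean level was between 8.53 and 8.87 on wild type arrays and between 8.93 and 9.64 on severe line arrays. Of 11 markers of activated fibroblasts 6 rose, again beside 8.26% of all genes, with a median of 0.86. They included the matrix genes Comp (2.85) and Sparc (1.46), the protease inhibitor Timp1 (1.96), and Ccn2, a matricellular growth factor (1.89). Their mean level was between 7.76 and 7.99 in wild type and between 8.66 and 9.28 in the severe line, while Cthrc1, Thbs4 and Cilp were detected on at most 1 array. Of 9 genes of the elastic wall of great vessels 6 rose, beside the same 8.26%, with a median of 1.19, from a mean level of 8.55 to 8.63 to one of 9.26 to 9.78. They included Mfap4 (2.18), Loxl1 (1.26), Mfap5 (1.23) and Eln, which encodes elastin (1.20).

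At 3 weeks 1 of 13 fibroblast markers, 3 of 11 markers of activated fibroblasts and 4 of 9 genes of the vessel wall rose in the severe line, where 2.66% of all genes rose. In the mild line 0 of 13, 1 of 11 and 1 of 9 did, beside 2.33% of all genes called in either direction. With such shares 1 gene of a list is no result about the list. In wild type hearts 5 of 13 fibroblast markers and 5 of 9 genes of the vessel wall were lower at 24 than at 3 weeks, as Acta2 was, beside 2.57% of all genes called. Eln differed by -2.31 there.

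Pericytes, the contractile cells of capillaries, gave another picture. Of their 11 tested markers 2 rose and 4 fell in the severe line at 24 weeks, beside 8.26% and 7.32% of all genes, with a median of -0.19. Abcc9 and Vtn were lower, by -0.83 and -0.57, and Cspg4 was higher, by 0.53. Of 13 endothelial markers 2 rose and 0 fell, with a median of 0.05, a share near the 15.6% of all genes called. Of 10 macrophage markers 3 rose, Lgals3 by 2.21, beside 8.26% of all genes. Heart muscle markers had 0 of 9 called and a median of -0.04. The part of these cell types in the differences of Acta2, Myl9 and Tagln was not tested.

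**Figure D5:**
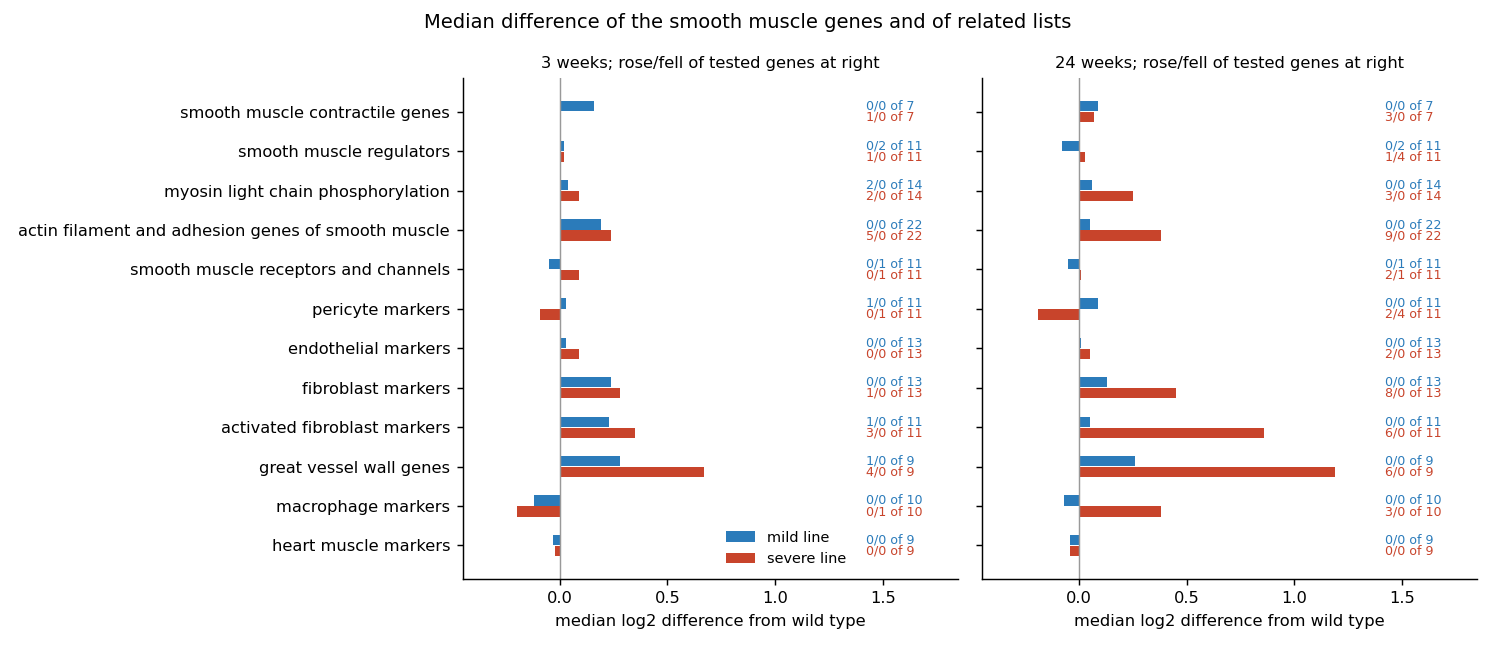
Median log2 difference from wild type (horizontal axis) of the smooth muscle contractile genes and of 11 related lists (vertical axis), in the mild and severe line at 3 and 24 weeks. Numbers at the right give the genes that rose and fell among those tested. In the severe line at 24 weeks the medians of the vessel wall and activated fibroblast lists are 1.19 and 0.86, and that of the 7 contractile genes is 0.07.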

How the data were processed

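The authors deposited quantile-normalized log2 intensities of 24 arrays, the raw bead summary intensity of each probe, and a detection p-value per probe and array against negative control beads. The log2 values showed no background subtraction. Scanner and normalization software are not given in the sources used here. A further 48 columns of per-sample values (bead standard errors and bead numbers) were not used. A value matrix of the same deposited log2 values differed by 0.0.

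Probes were named from the platform annotation (34885 with 1 gene, 18 with several and 10378 with none). A probe was kept if detected (p under 0.05) on at least 3 arrays, and the brightest kept probe stood for its gene. All 6 groups were fitted together in limma 3.58.1 (R 4.3.3), with Benjamini-Hochberg adjustment over 12011 genes and an adjusted p under 0.05 as threshold. The script was tested on simulated data. Intervals of 95% are per gene. Mice were separate animals, and 1 array each limits the precision.

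Alternatives covered normalization, normexp background correction, filters, probes, wild type arrays used, array weights, the variance prior, background sets, runs of sample numbers, the replicate number and leaving out each mouse. Named genes were all 8 contractile genes, up to 4 called genes with the highest change per list, and the 5 closest in pattern. Celf4 and some markers of fat, airway and thymus were named as checks of the arrays. The contractile genes and lists were chosen with earlier results of these data known.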

Additional observations from a re-analysis of the deposited data

Results flagged for a closer look

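Among the 15 kept probes, 60 groups of 4 or 5 arrays were looked at for a mouse far from the rest of its group, and 3 were found, where chance gives about 5%. On the Acta2 probe ILMN_2710354, wild type replicate 2 of 3 weeks was the lowest at 8.74, with the next at 9.33. On the brightest Smtn probe, wild type replicate 3 of 3 weeks was the highest at 11.85, with the next at 11.49. On the dim Smtn probe ILMN_2484535, severe line replicate 4 of 24 weeks was the highest at 6.74, with the next at 6.59. Causes were not tested.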

How the results depend on the processing

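No difference of the 7 tested genes that had been called changed sign under any alternative run. In the severe line at 24 weeks Acta2, Myl9 and Tagln were called in every alternative but 1, within the arrays of lower background, where Acta2 was not (2 genes called). In the mild line 0 genes were called in every alternative.

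Against wild type at 3 weeks, the count of 1 gene in the severe line became 3 with a detection p under 0.01, with the mean of a gene's probes, with array weights and with runs of 6 as a block. It became 2 with raw intensities centred on a common median, with only the groups compared, with a trended robust variance prior, with a block for the background set, and in the fit with the replicate block. It became 0 with each line's own wild type mice alone and in the set of higher background, and ran from 1 to 3 without each mouse in turn. Between the lines at 3 weeks the count of 1 became 2 with array weights. It became 0 with raw intensities, without a filter, with every probe tested on its own and with only the groups compared. It was also 0 with either block of arrays and within the higher background set. Without each mouse it ran from 0 to 1. For wild type hearts by age the count of 1 became 2 with runs of 6 as a block, and 0 with raw intensities, without a filter, with the mean of a gene's probes and within the arrays of lower background, and ran from 0 to 1 without each mouse. The causes were not tested.

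Mice sharing a replicate number had a mean correlation of deviations of 0.085, from -0.318 to 0.571. For mice with different numbers the mean was -0.028, from -0.558 to 0.7. These ranges overlapped widely, but on many arrays the number also went with the run of sample numbers. The correlations therefore do not settle whether the number marks variation that mice share. With the replicate block Smtn was also called between the lines at 24 weeks (-0.35, adjusted p = 0.04). In the same fit Acta2 passed in the severe line at 3 weeks (0.66, adjusted p = 0.0401). Dim signal makes the fold changes of Tagln low estimates and limits what can be detected for Lmod1 and Cnn1, and 3 mice a group limit the comparisons at 3 weeks.

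Counts over all genes moved more. In the severe line against wild type at 24 weeks 1871 genes were called, 1067 with only the groups compared, 1109 with raw intensities, 1243 with the own wild type mice, and 951 and 484 in the higher and lower background set, but 2175 with array weights and 2345 with runs of 6 as a block. At 3 weeks the 555 genes became 252 with raw intensities, 165 with the own wild type mice, 88 and 71 in the background sets, and 1292 with array weights. For the mild line at 3 weeks 280 genes became 65 with raw intensities and 777 with array weights (50 in the lower background set), and at 24 weeks the count ran from 27 to 193. Between the lines 1354 genes ran from 194 to 2159 at 24 weeks and 69 from 5 to 269 at 3 weeks. By age in wild type 309 genes ran from 17 to 490. These ranges leave out the fits without single mice. Counts within the lower background set at 3 weeks rest on a single array of each transgenic line.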
